A study of Mus musculus with 4 samples.

Results

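The genes described here encode the proteins of the cytosolic ribosome. They were chosen by name, as genes called Rpl or Rps with a number, with at most 1 letter and an l after it, together with Rpsa, Rplp0, Rplp1 and Rplp2. A gene also had to hold at least 100 counts in each of the 4 libraries. Of the 34745 genes in the count table, 82 had such a name and 68 passed the count limit, 42 of the large subunit and 26 of the small subunit. They lay on 18 chromosomes, with 12 of them on chromosome 7. The libraries held RNA of cultured mouse macrophages, which the study derived from bone marrow. WT libraries came from mice with a floxed G3bp1 gene, and KO libraries (G3bp1mac-/-) from floxed mice that also carried Cre under the Lyz2 promoter, which is active in the whole myeloid lineage. No treatment, age or sex was given for these 4 samples, and nothing in the labels said whether the 2 samples of a genotype came from separate animals, so p-values measure the spread between these samples only. The comparison asked whether macrophages without G3BP1, the scaffold protein of stress granules, differed in their RNA from macrophages with it.

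Each cytosolic ribosome is built from ribosomal RNA and 1 copy of most of these proteins, and cells make the proteins in matched amounts. Their mRNAs are short, abundant and long-lived, and many begin with a C followed by a run of pyrimidines, the 5′ terminal oligopyrimidine (TOP) tract. Through this tract mTORC1 and the protein LARP1 control translation of the mRNAs, and under stress such mRNAs can be held back from ribosomes.

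The starts of 9 genes are shown because this tract is the sequence that the class is known for. Each window holds 30 bases of the RefSeq promoter table on GRCm38.p6, in the direction of the gene, with the annotated start as the eleventh base, and capitals mark the longest run of C and T that begins with a C within 5 bases of the start. The first 6 have C at the start base itself with at least 4 more pyrimidines after it, Rpl39 has a run of 5 beside the start, and Rpl41 and Rps25 have none of 5 or more.
Rpl38 at chr11:114668570-114668599, plus strand: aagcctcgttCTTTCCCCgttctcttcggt
Rplp2 at chr7:141447641-141447670, plus strand: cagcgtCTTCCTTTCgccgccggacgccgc
Rpl35 at chr2:39005112-39005141, minus strand: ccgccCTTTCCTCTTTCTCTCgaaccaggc
Rpl14 at chr9:120571507-120571536, plus strand: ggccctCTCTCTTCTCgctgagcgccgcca
Rpl15 at chr14:18270967-18270996, minus strand: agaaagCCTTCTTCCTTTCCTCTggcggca
Rps18 at chr17:33955646-33955675, minus strand: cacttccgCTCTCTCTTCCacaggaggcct
Rpl39 at chrX:37085203-37085232, minus strand: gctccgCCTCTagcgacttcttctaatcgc
Rpl41 at chr10:128549149-128549178, minus strand: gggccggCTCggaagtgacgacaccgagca
Rps25 at chr9:44407704-44407733, plus strand: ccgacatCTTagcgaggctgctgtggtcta

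The table had promoters for 51 of the 68 genes, 62 promoters in all. A C at the annotated start followed by at least 4 pyrimidines, searched on the gene's own strand, was present in 10 of them (16.1%), against 823 of all 32851 promoters in the table (2.51%) and none of 75 promoters of mitochondrial ribosomal protein genes. With the start of the run allowed within 5 bases, the share was 41.9% for the cytosolic genes, 22.7% for the mitochondrial ones and 18.3% for all promoters. Annotated starts can lie a few bases from the true ones, and absence of a run in the window says only that these letters were not there.

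Libraries held 16724241 to 19747909 counts, and 12418 genes, the 68 included, passed the filter on low counts. The targeted gene, G3bp1, had 104 and 180 CPM (counts scaled to a common library size) in the WT libraries and 70.1 and 117 in the KO libraries. KO 2 therefore lay above WT 1 and the groups overlapped, while KO lay below WT by a log2 ratio of -0.57 in the libraries numbered 1 and -0.63 in those numbered 2 (overall log2 fold change -0.61 ± 0.40 SE, adjusted p = 0.904, edgeR quasi-likelihood test). A count over a whole gene cannot show the loss of a floxed exon, so genotypes here are those of the labels. The macrophage genes Cd68, Csf1r, Lyz2 and Adgre1 were abundant in every library. The sum of 10 macrophage markers was 55133 and 47787 CPM in WT and 37064 and 44999 in KO. Both KO libraries lay below both WT libraries for 3 of the 10 and above for 1. Cd14 went by replicate number, with 2027 counts in WT 1, 10875 in WT 2, 1967 in KO 1 and 10487 in KO 2. Summed over 10 genes each, stromal markers lay at 80.3 and 93.1 CPM in WT and 353 and 330 CPM in KO, with both KO libraries above both WT libraries for 8 of the 10 and Lepr at 0 to 3 counts. Mast cell and basophil markers lay at 115 and 103 CPM in WT and 45.0 and 53.6 in KO, with 5 of 6 tested genes below in both KO libraries and Mcpt8 at 0, whereas Hdc had 14 counts in WT 1, 49 in WT 2, 48 in KO 1 and 44 in KO 2. B cell markers lay at 46.0 and 49.1 CPM in WT and 24.99 and 28.5 in KO, with all 6 tested genes below. Erythroid markers lay at 12.1 and 8.40 CPM in WT and 2.04 and 3.10 in KO, with all 3 tested genes below, and neutrophil markers at 24.7 and 21.8 in WT and 9.71 and 11.7 in KO, with 2 of 4 tested genes below, S100a8 and S100a9. S100a9 had 91 counts in WT 1, 82 in WT 2, 2 in KO 1 and 1 in KO 2. Dendritic cell markers, of which Bst2 held most counts, lay at 140.3 and 131 CPM in WT and 80.9 and 98.95 in KO, with 3 of 5 tested genes below, and endothelial markers at 34.3 and 27.8 in WT and 58.3 and 40.4 in KO, with 1 of 5 above. Of 15 proliferation genes, 11 lay above in both KO libraries. The part of such cells in the results below was not tested.

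No ribosomal protein gene differed between KO and WT macrophages by the limits used, an adjusted p under 0.05 and a log2 fold change beyond 1 in either direction. By the edgeR quasi-likelihood test this count was 0 of 68, and it was also 0% of all 12418 tested genes. Rpl41 and Rpl38 were lower in KO at an unadjusted p under 0.05, as were 1.99% of all genes, and no member was higher at that limit (background 4.64%). At that limit 42 of the 68 were lower without WT 2 (background 5.95%), 1 without KO 2 (background 1.3%), 0 without WT 1 (background 1.56%) and 0 without KO 1 (background 0.725%). DESeq2 called 0 of the 68 (1.46% of all genes) and the edgeR exact test also 0 (1.40%). Adjusted p-values of the 68 lay between 0.731 and 0.989, and standard errors of their log2 fold changes between 0.22 and 0.48.

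All 68 estimates nevertheless lay below 0. The median log2 fold change of KO to WT was -0.53, from -0.81 for Rpl41 to -0.06 for Rpl4, while the median over all tested genes was 0.04. Large subunit genes had a median of -0.52 and small subunit genes of -0.60. Both KO libraries lay below both WT libraries for 45 of the 68 genes (66.2%), against 16.9% of all tested genes. Both lay above for 0 of the 68, against 20.0% of all genes. The 68 values are not independent of each other, since the same 4 libraries gave them all. For 37 of the genes the estimate was smaller than the difference between the 2 WT libraries.

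**Figure D1:**
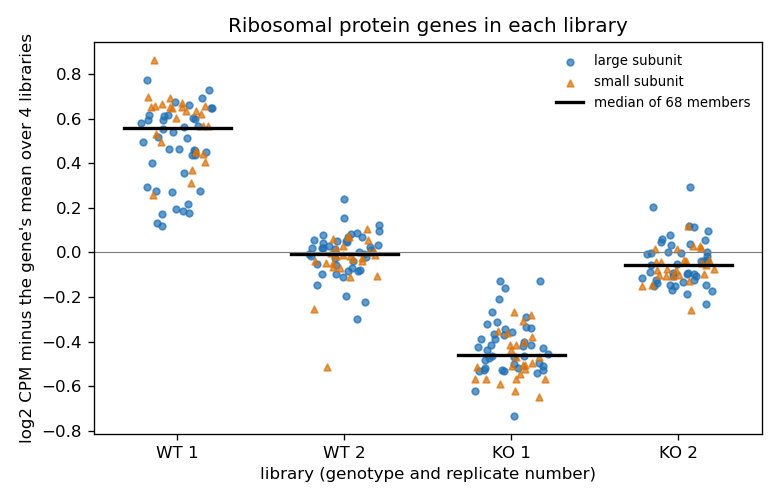
Log2 CPM of each of the 68 ribosomal protein genes in each library, less the mean of that gene over the 4 libraries, with circles for the large subunit, triangles for the small subunit and a bar at the median. Medians were 0.56 in WT 1, -0.01 in WT 2, -0.46 in KO 1 and -0.06 in KO 2, so WT 1 and KO 1 lie at the ends while WT 2 and KO 2 lie close together.

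The libraries of a genotype were far apart. WT 1 was the highest library for 67 of the 68 genes, against 28.3% of all tested genes. KO 1 was the lowest for 66 genes, against 24.9%. From WT 1 to KO 1 all 68 genes were lower, with a median log2 ratio of -0.998 and a range of -1.32 to -0.30. From WT 2 to KO 2 the median was -0.05, with 45 genes lower and 23 higher, and no gene differed by more than 0.5. The 2 WT libraries differed by a median of 0.56 on the log2 scale, and KO 2 lay above KO 1 by a median of 0.38. Without WT 1 the median log2 fold change of the 68 genes was -0.24, with 59 below 0, and without KO 1 it was -0.36, with 63 below 0. Without WT 2 it was -0.82, and without KO 2 it was -0.74. The difference between KO and WT thus rested largely on WT 1 and KO 1.

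**Figure D2:**
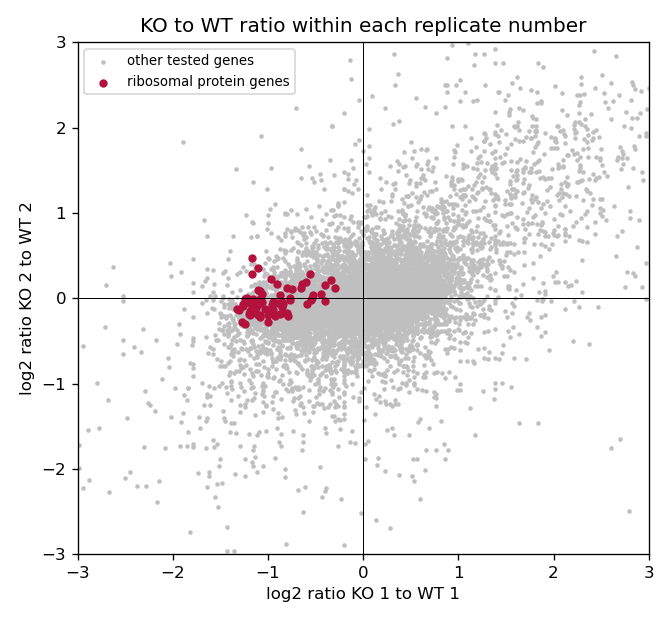
Log2 ratio of KO 1 to WT 1 (horizontal) against that of KO 2 to WT 2 (vertical) for ribosomal protein genes in red and the other tested genes in grey; 152 genes at or beyond 3 on either axis are not drawn. The 68 genes sit between -1.32 and -0.30 on the horizontal axis and between -0.30 and 0.47 on the vertical one.

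As a share of all counts, the 68 genes held 3.36% in WT 1, 2.30% in WT 2, 2.05% in KO 1 and 2.37% in KO 2. KO 2 lay above WT 2, and the groups overlapped. With library sizes scaled by TMM the shares were 3.52% and 2.44% in WT and 1.84% and 2.38% in KO, and the groups did not overlap (exact permutation test, two-sided, p = 0.333, the smallest possible here). The mean share was 2.83% ± 0.747 (SD, n = 2) in WT and 2.21% ± 0.224 (SD, n = 2) in KO, a difference of -0.617 percentage points (exact permutation test, two-sided, p = 0.667). With 2 samples against 2, this test cannot give a p below 0.333. The KO to WT ratio of the shares was 0.612 for the libraries numbered 1 and 1.03 for those numbered 2.

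Among large subunit genes the estimates of Rpl41, Rpl38 and Rpl39 were the lowest. Rpl41, the smallest protein of the ribosome, had 1165 CPM in WT 1, 727 in WT 2, 483 in KO 1 and 599 in KO 2. Rpl38, a protein known from mice with a skeletal patterning defect, had 90.6 and 65.7 CPM in WT and 38.3 and 53.2 in KO. Both KO libraries of these genes lay below both WT libraries. Their log2 fold changes were -0.81 ± 0.31 (SE, adjusted p = 0.731) for Rpl41 and -0.77 ± 0.30 (SE, adjusted p = 0.736) for Rpl38 in the edgeR quasi-likelihood test, and neither passed. Rpl39, which lines the exit tunnel for the nascent chain, had 143 and 80.7 CPM in WT and 57.8 and 73.5 in KO, again without overlap. Rpl26, a large subunit protein that also binds the Trp53 mRNA, had 730 and 474 CPM in WT against 324 and 422 in KO. Rpl24, a part of a bridge between the subunits, had 560 and 483 CPM in WT and 246 and 422 in KO, and KO 1 stood apart from the other 3 libraries.

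The large subunit genes with estimates nearest to 0 were Rpl4, Rpl3, Rpl27a and Rpl22. Rpl4, which reaches into the exit tunnel, had 1436 and 1177 CPM in WT and 1137 and 1362 in KO, and its estimate of -0.06 turned to 0.09 without WT 1. Rpl3, which lies near the catalytic centre, had 278 and 233 CPM in WT and 226 and 253 in KO, with a log2 fold change of -0.09 ± 0.24 (SE). Its libraries overlapped, and its estimate turned to 0.04 without WT 1. Rpl22, not essential for the ribosome itself but needed for T cell development, had 160 CPM in WT 1 and between 120 and 133 in the other libraries (log2 fold change -0.14 ± 0.25 SE, and 0.09 without WT 1). Rpl10, which joins late in assembly of the large subunit, lay between the extremes at 160 and 133 CPM in WT and 106 and 127 in KO. Rpl15 had the estimate nearest to 0 among the 45 genes without overlap, with 38.5 and 34.2 CPM in WT and 29.1 and 33.6 in KO. Rpl13a, which in activated monocytes can leave the ribosome and silence inflammatory mRNAs, had 1410 CPM in WT 1 against 799 in WT 2, with 721 and 933 in KO. For this gene WT 2 lay between the KO libraries, and without WT 1 the estimate moved from -0.42 to 0.05.

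The stalk, through which the ribosome engages elongation factors, is made of Rplp0 and dimers of Rplp1 and Rplp2. Rplp0 had the estimate nearest to 0 of the trio, with 1100.2 and 1053.5 CPM in WT and 811 and 1088 in KO (log2 fold change -0.18 ± 0.24 SE). Rplp1 had 1660 and 989 CPM in WT and 713 and 956 in KO (-0.67 ± 0.33 SE). Rplp2 had 408 and 241 CPM in WT and 193 and 232 in KO (-0.61 ± 0.33 SE). In the last pair of genes the WT 2 and KO 2 libraries were nearly level, and the differences between members of the trio were not tested.

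WT 1 was the highest library for all 26 small subunit genes, and KO 1 the lowest for 25. Rps14 and Rps19, whose loss of 1 allele in people is linked to anaemias, had 942 and 633 CPM in WT with 409 and 555 in KO, and 415 and 260 CPM in WT with 176 and 258 in KO. For Rps14 the log2 fold change was -0.71 ± 0.31 (SE), and for Rps19 it was -0.64 ± 0.35 (SE). Rps25, needed for initiation at some viral mRNAs, had 891 and 581 CPM in WT and 356 and 530 in KO (-0.73 ± 0.33 SE). Rps27a, made as a fusion with ubiquitin, had 112 and 73.4 CPM in WT and 46.8 and 70.0 in KO. In all 4 genes both KO libraries were below both WT libraries, and WT 2 lay closer to KO 2 than to WT 1.

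Rps3, at the entry of the mRNA channel, had 1058 and 718 CPM in WT and 607 and 782 in KO with overlap. Rpsa, near the exit of that channel, had 1377 and 1139 CPM in WT and 956 and 1174 in KO, and its libraries overlapped too. Rps28 varied most between replicates, with 126 CPM in WT 1 against 48.5 in WT 2, and 55.9 and 67.4 in KO. Its log2 fold change of -0.50 ± 0.48 (SE) became 0.35 without WT 1. Rps4x, the X-linked form of this protein, had 1288 and 937 CPM in WT and 711 and 909 in KO (-0.46 ± 0.27 SE), with little room between WT 2 and KO 2. Rps15, which lies near the decoding centre, had 806 and 604 CPM in WT and 474 and 594 in KO (-0.40 ± 0.26 SE), again with WT 2 and KO 2 close together.

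The KO 1 to WT 1 ratio moved with mRNA length. Lengths were those of 1 principal transcript per gene in GENCODE M21, taken by annotation rank, then support level, then shortness. Their median was 767.5 bases for the 68 genes. Across the 68 genes, the log2 ratio of KO 1 to WT 1 correlated with log2 length at a Pearson r of 0.36 and a Spearman rho of 0.51. Across 12315 other tested genes it did so at 0.48 and 0.59, and these points share libraries and are not independent replicates. For KO 2 to WT 2 the correlations were 0.16 and 0.15 for the 68 genes and 0.14 and 0.19 for the others. Libraries of the same genotype also differed with length. For WT 2 to WT 1 the correlations were 0.24 and 0.45 for the 68 genes and 0.18 and 0.29 for the others. For KO 2 to KO 1 they were -0.10 and -0.18 for the 68 genes and -0.14 and -0.20 for the others. Of genes with mRNAs of up to 600 bases, 21 ribosomal protein genes had a median KO 1 to WT 1 ratio of -1.16 and 324 other genes of -0.92. From 1000 to 1500 bases the medians were -0.86 for 11 ribosomal protein genes and -0.45 for 1363 others, and above 1500 bases -0.80 for 7 and 0.21 for 9839.

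**Figure D3:**
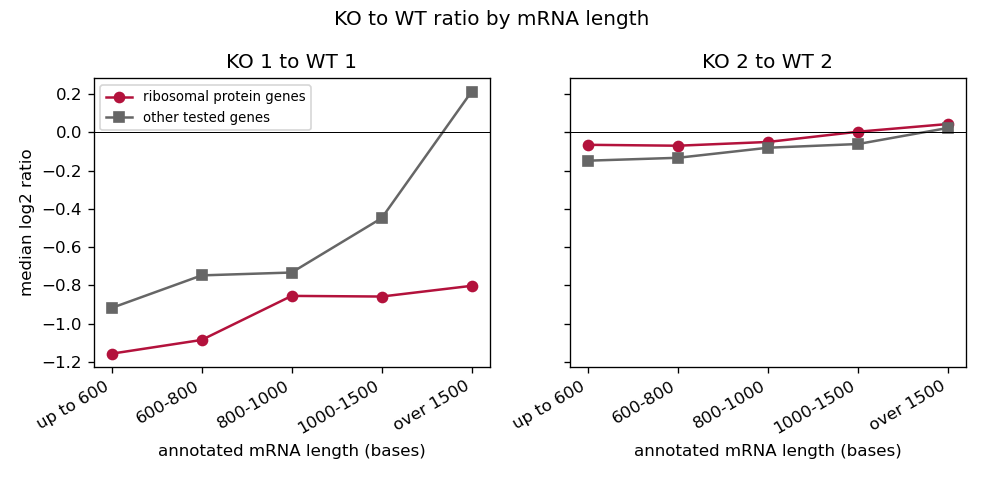
Median log2 ratio of KO 1 to WT 1 (left) and of KO 2 to WT 2 (right) in 5 ranges of annotated mRNA length in bases, for ribosomal protein genes (red circles; 21, 17, 12, 11 and 7 genes) and the other tested genes (grey squares). In the left panel the ribosomal protein genes run from -1.16 to -0.80, below the other genes in each range, and in the right panel both lines stay between -0.15 and 0.04.

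With the length trend of each library taken out of the fit, the median log2 fold change of the 68 genes was -0.14 and that of all genes -0.08. Then 52 of the 68 lay below 0, against 62.1% of all genes. Both KO libraries lay below both WT libraries for 18 (background 20.1%) and above for 4 (background 13.0%), and 0 were called. With the longer gene lengths implied by the deposited file the median was -0.38 and 64 lay below 0, against a median of -0.06 and 57.9% below 0 over all genes. The annotated transcripts of Rps15a (5130 bases) and Rps20 (3706 bases) were far longer than those of the other members. This puts both among the 7 members above 1500 bases. Correction for mRNA length moved their estimates from -0.50 to -0.84 for Rps15a and from -0.70 to -0.93 for Rps20. Whether these samples held those long transcripts was not tested.

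Ribosomal protein genes have many retrocopies in the mouse genome, most of them pseudogenes. Copies with at least 95% identity over at least 90% of the coding sequence were found for 28 of the 68 genes, 49 copies in all when the genes under the count limit are included. Copies held 22.9% to 23.5% of the counts of all 82 named genes and their copies together, with nearly the same share in each library. For 8 members copies held over 50% of the counts. Rpl12 had 482, 373, 366 and 524 counts in WT 1, WT 2, KO 1 and KO 2, while its copy Gm10275, identical over the whole coding sequence, had 16303, 11414, 11315 and 14962. Rpl5, which with Rpl11 binds Mdm2, had 1339, 1084, 1058 and 1343 counts, and its identical copy Gm15500 had 27120, 19347, 17546 and 23618. Rpl27 had 203, 200, 149 and 278 counts against 95.9% of the family's counts in a copy. The proportions for Rps7, Rpl37, Rpl39 and Rpl35 lay between 58.6% and 68.9%. Reads of a gene and of an identical copy cannot be told apart, so the level of each of these genes is uncertain.

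Adding copies to their genes left the difference between genotypes nearly as it was. The median log2 fold change of the 68 genes became -0.54, 47 genes had both KO libraries below both WT libraries (background 16.8%), and 0 were called. Rpl12 moved from -0.20 to -0.33, Rpl5 from -0.27 to -0.42 and Rpl27 from -0.18 to -0.66. Copies that could be tested, 36 in number, had a median of -0.58, all below 0. BC004004 and Wdr89 are separate genes that hold a near copy of Rpl21 and Rplp2, so the sums of those families include reads of other transcripts.

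The count limit left out 14 names, some of them core proteins of the ribosome. Just inside the limit were Rpl27 with a lowest count of 149 and Rpl17 with 162, and just outside were Rps4l with 93 and Rpl9 with 74. For 4 of the 14, copies held over 90% of the family's counts. Rps27 had 67, 57, 32 and 49 counts while Rps27rt, identical in coding sequence, had 11439, 7184, 4896 and 6515 (log2 fold change of Rps27rt -0.96 ± 0.31 SE, adjusted p = 0.600, edgeR quasi-likelihood test). Rpl11, Rpl9 and Rpl23a showed the same division, with 98.6%, 98.6% and 99.7% in copies. Rps6, the substrate of S6 kinase, was counted 57 times in WT 1, 89 in WT 2, 87 in KO 1 and 163 in KO 2, and no copy of it was found. Of the 14, 12 passed the filter on low counts, 9 with estimates below 0 and 3 above.

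Rps4l, a relative of Rps4x on chromosome 6, had WT libraries close together and KO libraries close together. Its counts were 220 in WT 1, 192 in WT 2, 93 in KO 1 and 115 in KO 2, which scaled to 13.6 and 12.04 CPM for WT and 4.99 and 5.84 CPM for KO. It was lower in both numbered pairs, with log2 ratios of -1.44 and -1.04. Its log2 fold change was -1.24 ± 0.27 (SE, unadjusted p = 0.00550, adjusted p = 0.306, edgeR quasi-likelihood test) and did not pass after adjustment.

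In other paralogue pairs WT 2 and KO 2 lay closer together. Rps27l, the paralogue of Rps27, had 162 and 99.7 CPM in WT and 69.4 and 99.97 in KO. Rpl36al had 124 and 73.3 CPM in WT and 66.2 and 81.9 in KO, and Rpl36a 21.3 and 10.8 in WT and 9.87 and 13.9 in KO. Rpl39l had 21 to 27 counts in each library, Rpl3l at most 3 and Rpl10l none. A count of 0 allows up to 3 counts, which is 0.152 to 0.188 CPM in these libraries, counting error only.

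Levels were compared between genes only per length. By the authors' FPKM, the median of the 68 genes was 95.2, and the levels spread over 627-fold. Rplp1 was highest, at 3201, 1882, 1605 and 1926 FPKM in WT 1, WT 2, KO 1 and KO 2. Rpl8, which lies near the catalytic centre, was also among the 3 highest (mean 984 FPKM), and WT 1 was its highest library. Rpl12, with 96.9% of its family's counts in a copy, was lowest at a mean of 3.44 FPKM, with Rpl13 at 3.98 and Rpl36a at 4.72. The FPKM of Rpl12 lay between 3.04 and 3.94 in the 4 libraries, so Rpl12 and Rpl13, at 3.45 to 4.31, overlapped.

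The spread depended on the length used. For 44 of the 68 genes the length implied by count and FPKM was over 2 times that of the principal transcript, with medians of 2518 and 767.5 bases. Per kilobase of principal transcript the levels spread over 136-fold, 31 of the 68 lay within 2-fold of the median against 21 by FPKM, and 5 of the 10 highest genes were shared. With copies added, the spread was 141-fold and 30 lay within 2-fold. Per kilobase of principal transcript Rpl17 was lowest with or without copies, while Rpl12 rose from 19.9 to 637 CPM per kilobase with its copy added. Rpl41 was at a mean of 224 FPKM but at 1348 CPM per kilobase of transcript, and Rpl22 at 21.02 FPKM and 282 CPM per kilobase. The order of genes by abundance therefore changes with the length used. Division by a fixed length does not change a comparison of 1 gene between libraries, whereas taking out the length trends, as above, did.

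**Figure D4:**
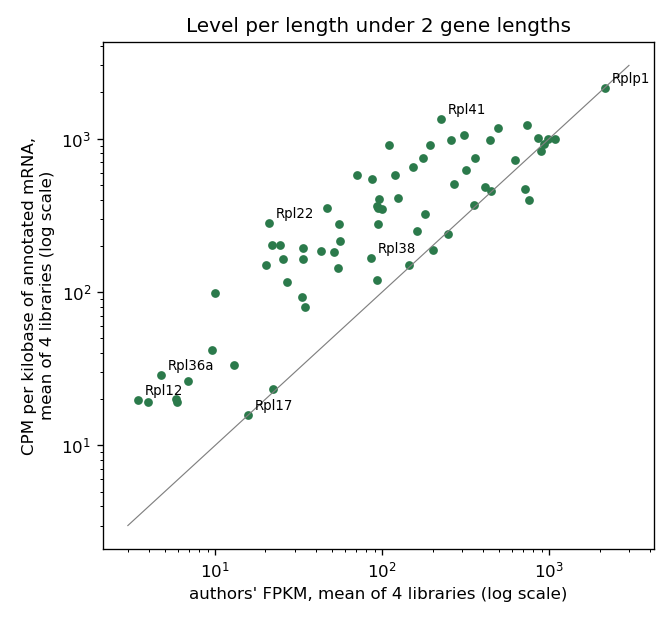
Mean level of each of the 68 genes over 4 libraries, with the authors' FPKM on the horizontal axis and CPM per kilobase of the annotated principal transcript on the vertical axis, both logarithmic, and a line where both are equal. Rplp1 lies at the top on both, Rpl41 and Rpl22 lie well above the line, and Rpl12, Rpl36a and Rpl17 lie at the low end.

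Genes with and without a pyrimidine run near the start had overlapping estimates. The 24 genes with a run of at least 5 bases in any listed promoter had a median log2 fold change of -0.57, from -0.77 to -0.12. The 27 genes without one had a median of -0.46, from -0.81 to -0.06. Rpl41 and Rps25, shown above without such a run, were among the lowest estimates.

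In other lists of the translation machinery no gene was called, as was true of all 12418 tested genes. Mitochondrial ribosomal proteins, which make a separate ribosome, had a median log2 fold change of -0.41 over 77 tested genes. Both KO libraries lay below both WT libraries for 51 of them (16.9% of all tested genes) and above for 2 (20.0% of all tested genes). Their median was -0.75 from WT 1 to KO 1 and -0.09 from WT 2 to KO 2. Fau, whose product is a small subunit protein fused to a ubiquitin-like domain, had 767 and 504 CPM in WT and 314 and 435 in KO. In a list of 4 tested genes outside the naming rule, 3, Rpl22l1 and Fau among them, had both KO libraries below both WT libraries, whereas Rpl7l1 overlapped. Rps3a1, which encodes a small subunit protein, had 528 and 405 CPM in WT and 458 and 595 in KO, so its groups overlapped and KO 2 was highest. Rps3a1 lies outside the naming rule too and was not in that list. Of 38 initiation factors the median was -0.08, with 15 above and 23 below 0, and of 9 elongation factors -0.13. Eef1a1, which brings aminoacyl-tRNA to the ribosome and whose mRNA is itself of the TOP class, had 9479 and 8618 CPM in WT and 8371 and 8883 in KO. Tpt1, also of that class, had 1325 and 902 CPM in WT and 695 and 821 in KO.

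Of 79 ribosome biogenesis factors the median log2 fold change was 0.05, with 47 above and 32 below 0, and of 25 genes of mTORC1 and S6 kinase signalling 0.07. The median of the biogenesis factors turned with the libraries used, from -0.17 without WT 1 and -0.23 without KO 2 to 0.30 without WT 2 and 0.26 without KO 1. Ncl, the nucleolar protein nucleolin, had 324 and 398 CPM in WT and 388 and 466 in KO. Larp1, which binds TOP mRNAs, had 40.6 and 117 CPM in WT and 60.4 and 113 in KO, so its libraries lay together by replicate number. The 8 tested snoRNA host genes had a median of -0.28, which became 0.21 with the mRNA length trend taken out.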

How the data were processed

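Total RNA of 4 macrophage samples was sequenced, 2 for each genotype. The authors filtered reads with Seqtk, aligned them with HISAT2 2.0.4 and counted fragments per gene with StringTie 1.3.3b. They deposited whole-number counts, not normalised, and FPKM values, which the deposited counts showed to be scaled by gene length and library total. The submitters' notes name the mm39 genome, but 27682 of the 34745 genes had the place and strand of GENCODE M21 (GRCm38), and coordinates here are on GRCm38. Strand use in counting is not given in the sources used here, so overlapping or antisense genes may share counts.

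Counts were tested in R 4.3.3 with edgeR 4.0.16 (quasi-likelihood, genotype only, TMM, two-sided, Benjamini-Hochberg adjustment over 12418 genes) after filterByExpr (minimum count 10, minimum total 15). CPM are scaled by TMM. Alternatives used DESeq2 1.42.0, limma 3.58.1 on log2 FPKM with a pseudocount of 1 or 0.1, other filters and scalings, length trends (loess, span 0.5), a replicate term and each library left out. On simulated counts for 12238 genes, 193 of 200 genes with a 4-fold change were recovered and 1 other gene was called. Those counts were given a smaller spread between samples than these data have, so they cannot show which shifts would be found here. Copies were found with BLAST 2.17.0. Totals of 16724241 to 19747909 counts set the precision, and the lowest scaled level of a member was 7.99 CPM.

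The genes, the lists and the tests were chosen with earlier results of these data known. Named genes were a list with known roles or paralogues, the 5 lowest and 5 highest estimates without overlap, the 3 highest and 3 lowest FPKM and the 3 genes furthest apart between replicate numbers. Others, such as Rpl4, Rpl27a and the genes shown for their copies, length, start sequence or count near the limit, were chosen after their values were seen. A few single genes are not reported here.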

Additional observations from a re-analysis of the deposited data

How the results depend on the processing

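None of the 68 genes was called under any alternative. Correction for mRNA length, chosen after seeing the data, gave a median log2 fold change of -0.14, with 18 genes below (20.1% of all genes) and 4 above (13.0% of all genes) in both KO libraries, and turned the estimates of Rpl10 (0.047), Rpl13 (0.11), Rpl22 (0.44), Rpl27 (0.26), Rpl27a (0.10), Rpl3 (0.076), Rpl4 (0.042), Rpl36a (0.16), Rpl36al (0.15), Rpl15 (0.16), Rps15 (0.15) and Rps28 (0.22), and among genes not named by fold change those of Rpl32 (0.024), Rps10 (0.029), Rps2 (0.022) and Rpl37a (0.00088). Correction for the file's gene length gave 37 genes below (20.9% of all genes) and 1 above (13.8% of all genes) and turned Rps15 to 0.013 and Rpl4 to 0.169, or to 0.014 and 0.170 together with the replicate block, and also Rpl17 (0.028) and Rpl37a (0.0083). On log2 FPKM with limma, Rpl22 turned to 0.028 with a pseudocount of 1 and 0.030 with 0.1, Rpl3 to 0.063 and 0.065, Rpl4 to 0.0899 and 0.0900, and Rpl27a to 0.013 and 0.014. The median of all genes there was 0.11 and 0.18, and that of the 68 was -0.36 with both. With the principal transcript length the levels spread over 136-fold rather than 627-fold. Leaving out 1 library at a time gave 45 to 67 genes with the remaining KO libraries below the remaining WT libraries (29.4% to 34.4% of all genes) and 0 to 2 above (31.6% to 40.0% of all genes), and, on the log2 scale and for the genes named by fold change alone, -0.80 to 0.050 for Rpl13a, -0.36 to 0.087 for Rpl22, -0.25 to 0.041 for Rpl3, -0.24 to 0.086 for Rpl4, -0.43 to 0.13 for Rpl27a, -0.88 to 0.13 for Rpl36a, -0.78 to 0.017 for Rpl36al, -1.06 to 0.35 for Rps28, -0.44 to 0.0058 for Rpl12, -0.65 to 0.17 for Rpl27 and -0.42 to 0.017 for Rplp0. In those fits the lone sample of a genotype is assumed to vary like the other genotype. The share difference ran from -1.15 points without WT 2 to -0.09 without WT 1. Medians of initiation factors, elongation factors, biogenesis factors, mTORC1 genes, snoRNA host genes and all genes, none of them tested, also changed sign under some alternatives.

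With replicate number as a block, 664 of all genes passed both limits (0 without it) and 0 of the 68, whose median was -0.52, although 8 of them, among them Rpl38 (edgeR adjusted p = 0.0185) and Rpl41 (edgeR adjusted p = 0.0187), had an adjusted p under 0.05 at a smaller fold, as did 7.84% of all genes at any fold. At an unadjusted p under 0.05, 43 of the 68 were lower under the block, and 9.37% of all genes. Block and gene length correction together gave 401 and 0. Same-numbered libraries deviated together over all genes (r = 0.73) but not over the 68 (r = 0.04), and with only 2 pairs and nothing in the labels on pairing, the samples are taken to share only a number. Without a minimum fold, 0 of the 68 passed in the fit without the block. The causes of these differences were not tested. The common biological coefficient of variation of 0.343 was larger than the spread simulated. With 2 samples a genotype, shifts of the simulated size may therefore be missed, and smaller ones too.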
